A study of Homo sapiens with 20 samples.

Results

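Expression of 10 genes was examined, the Rac guanine nucleotide exchange factors PREX1, TIAM1, DOCK2, DOCK8, DOCK10, DOCK11, VAV1 and ARHGEF6 and the Rac GTPases RAC1 and RAC2. They were found by an exact match of the gene name among the 60719 genes of the deposited table. RNA was sequenced from the established leukemic T cell line Jurkat (WT) and from JinB8, a somatic mutant of Jurkat that lacks surface CD47 (CD47-). Each line is represented by a single cell line, so CD47 status and any other difference between these 2 lines cannot be told apart. The study asked which transcripts depend on CD47, at rest and when CD3 and CD28 are engaged with or without its ligand thrombospondin-1 (TSP1). Each line gave 10 libraries. One library came from untreated cells at 1 h. The others came from cells plated on immobilized anti-CD3 and anti-CD28 (CD3+CD28), from cells that met these antibodies together with TSP1 at 1 μg/mL (CD3+CD28+TSP1), and from cells given TSP1 alone, each at 1, 3 and 6 h in serum-free HITES medium. Each condition was sequenced once per line, and the labels do not say that the libraries came from separate cultures. P-values therefore measure the spread between these libraries only, which includes treatment and may be technical. In the comparison of the lines over all libraries this spread includes time as well.

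Library totals over genes ran from 16107921 to 31737616 counts. Levels are CPM, the counts of a gene scaled to a common library size, after TMM scaling, a correction for library composition. The CD47 transcript was still present in the mutant, at a mean of 147 ± 12.6 CPM, against 317 ± 42.1 CPM in WT (SD, n = 10 each). All 12 T cell markers examined were expressed in both lines (summed level 1550 to 2120 CPM in WT, 1850 to 2590 CPM in CD47-). Markers of myeloid cells, epithelial cells, fibroblasts and erythroid cells summed to at most 7.23, 3.74, 7.94 and 4.43 CPM. Of 6 myeloid markers, only SPI1 stayed under 3 counts in every library. The myeloid marker CD68 had a median of 4.85 CPM in WT and 3.65 CPM in CD47-. The B cell marker CD79A had a median of 41.3 CPM in WT and 6.26 CPM in CD47-. The CD47- library given CD3+CD28+TSP1 for 3 h was the shallowest and correlated least with the others of its line and time (r = 0.10 and 0.23 of deviations from the line mean over tested genes). In bulk RNA, fewer expressing cells and less RNA per cell cannot be told apart.

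Rac proteins are small GTPases that switch on when an exchange factor replaces their GDP with GTP, and then drive actin polymerization, lamellipodia and immune synapse formation. DH-PH domain factors (PREX1, TIAM1, VAV1, ARHGEF6) and the structurally unrelated DOCK family are the main classes of Rac activators. PREX1 is switched on by the lipid PIP3 together with G protein βγ subunits, VAV1 by tyrosine phosphorylation below the T cell receptor, and DOCK2, the chief Rac activator of lymphocytes, works with the adapter ELMO1. DOCK8 and DOCK11 are known mainly as Cdc42 activators, DOCK10 and ARHGEF6 (α-PIX) act on Rac and Cdc42, RAC1 is made in nearly all cells, and RAC2 mostly in blood cells.

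Of the 10 genes, 9 passed the filter on low counts, and PREX1, RAC2 and VAV1 were higher in CD47- than in WT cells over all 20 libraries. These 3 of 9 compare with 40.4% of all 16327 genes called between the lines (edgeR quasi-likelihood test, adjusted p under 0.05), so the count of members was not above the background. The study had already picked PREX1 from these libraries as a gene that differs between the lines, and its difference is therefore a description here. The paper also checked the PREX1 difference by real-time PCR in both lines, and the PCR values were not examined here. Of the 8 other members, 2 were called. Levels of all 9 by library, time and treatment are shown in the plot of expression by time.

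**Figure D1:**
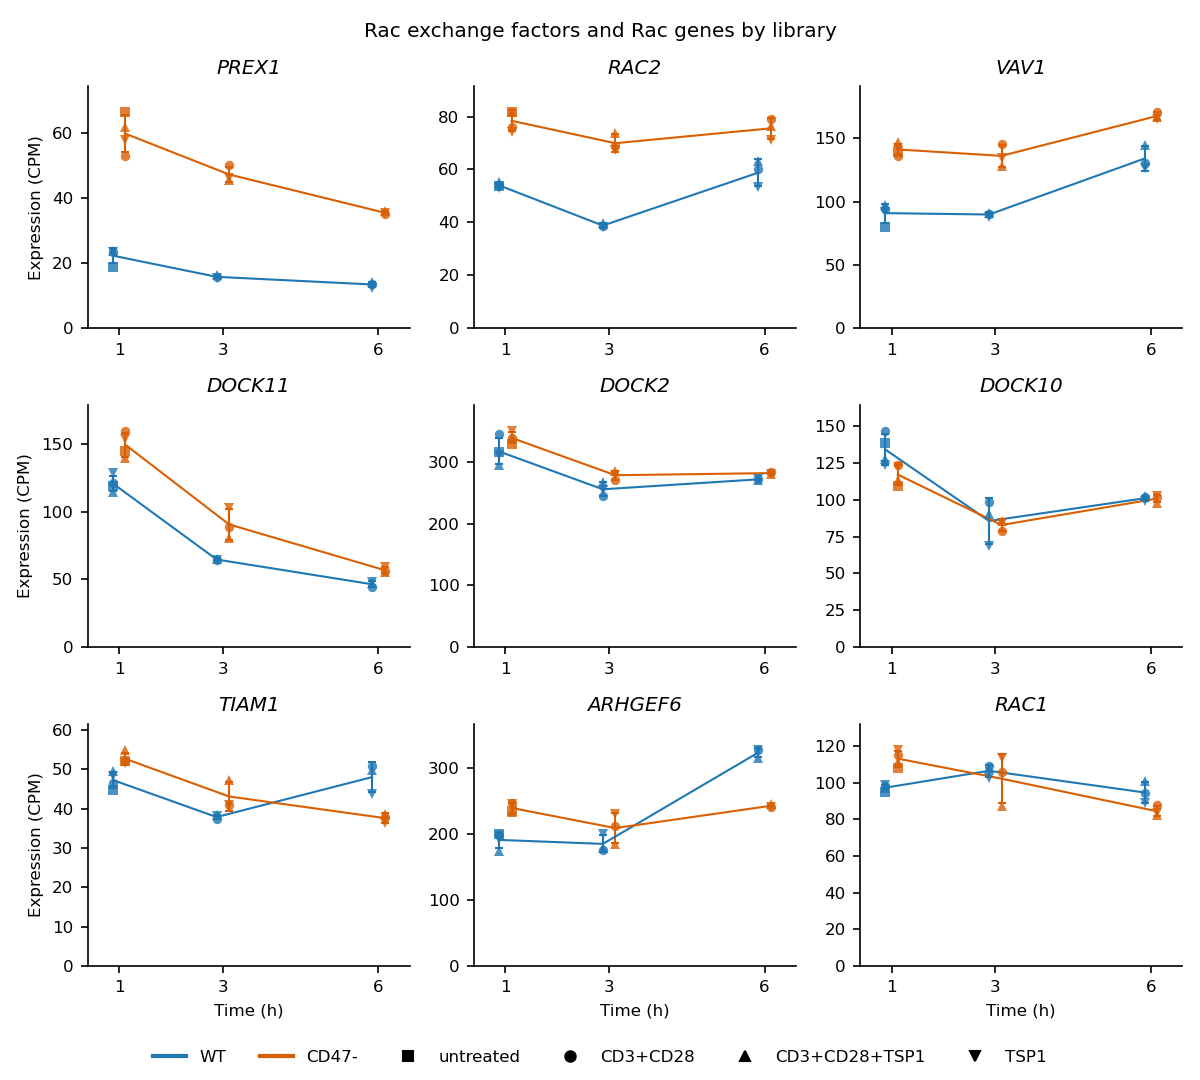
Expression (CPM, linear axis from 0) of 9 genes against time (h) in WT (blue) and CD47- (orange) libraries; symbols mark the treatment, lines join the means of each time point (n = 4, 3 and 3 libraries) and bars are 1 SD. PREX1 and RAC2 do not overlap between the lines, DOCK11 falls with time in both lines, and TIAM1, ARHGEF6 and RAC1 are higher in CD47- at 1 h and lower at 6 h.

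PREX1 lies on chromosome 20 of GRCh38 (chr20:48624252-48827999, minus strand). In WT cells it was at 18.8, 23.4, 23.6 and 23.3 CPM in the libraries of 1 h (untreated, CD3+CD28, CD3+CD28+TSP1, TSP1), at 15.6, 16.2 and 15.5 CPM at 3 h and at 13.6, 14.2 and 12.4 CPM at 6 h (CD3+CD28, CD3+CD28+TSP1, TSP1). In CD47- cells the same conditions gave 66.4, 52.9, 61.8 and 57.8 CPM at 1 h, 49.99, 45.5 and 46.0 CPM at 3 h and 35.0, 35.98 and 35.3 CPM at 6 h. The lowest CD47- library lay above the highest WT library, and PREX1 was higher in 10 of 10 pairs matched for treatment and time. The fold was 2.76 (log2 fold change 1.46, SE 0.148), and the log2 fold change was 1.42, 1.59 and 1.41 in the libraries of 1, 3 and 6 h alone. PREX1 was among the lowest of the members expressed in WT cells, where it lay below TIAM1 per unit of transcript length in 10 of 10 libraries, and in CD47- cells it was above TIAM1 in 2 of 10.

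Most PREX1 counts were assigned to its MANE Select isoform, whose annotated start lies in the RefSeq promoter window below. By counts, this isoform took 88.7% ± 5.56 of PREX1 counts in WT and 92.5% ± 3.85 in CD47- (SD, n = 10 each; difference 3.73 percentage points, permutation p = 0.101, adjusted p = 0.404 over 12 isoforms), or 70.6% and 78.3% when counts were divided by transcript length. The window is printed because most PREX1 counts in both lines were assigned to this start, an assignment by RSEM and not a measurement of start sites. It spans chr20:48827950-48828249 on the minus strand of GRCh38.p14, around the RefSeq start, and capitals mark GC boxes (GGGCGG on either strand).
PREX1 promoter: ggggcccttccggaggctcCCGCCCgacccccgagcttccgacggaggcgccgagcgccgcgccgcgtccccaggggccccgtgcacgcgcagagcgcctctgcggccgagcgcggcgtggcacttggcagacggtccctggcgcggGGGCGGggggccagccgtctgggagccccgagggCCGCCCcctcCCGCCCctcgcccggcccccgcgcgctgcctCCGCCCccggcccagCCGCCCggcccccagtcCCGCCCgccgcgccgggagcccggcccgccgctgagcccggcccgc
The window is 85.7% G and C with 49 CpG dinucleotides, against medians of 58.7% and 14 over 35116 RefSeq promoters of the same length. It holds 7 GC boxes, a motif found in 45.0% of those promoters, and no match to E-box (CACGTG, in 7.26%), ETS core (GGAAGT, in 22.8%), RUNX core (TGTGGT, in 13.1%) or AP-1 (TGACTCA, in 4.95%), searched on both strands without overlaps between motifs here. Motif matches are descriptions of the sequence only.

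RAC2 (chr22:37225270-37259594, minus strand), the Rac of blood cells, was the GTPase called between the lines over all libraries. It was at 53.6, 54.0, 55.4 and 53.0 CPM in WT at 1 h, 38.5, 39.8 and 38.2 CPM at 3 h and 60.1, 63.1 and 53.3 CPM at 6 h. In CD47- cells it was at 81.8, 76.1, 81.7 and 74.1 CPM at 1 h, 68.8, 73.8 and 67.2 CPM at 3 h and 79.0, 76.5 and 71.2 CPM at 6 h. The lines did not overlap, and CD47- was higher in 10 of 10 matched pairs, with a 1.47-fold difference (log2 0.56, SE 0.0897, edgeR adjusted p = 2.57e-05).

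VAV1 (chr19:6772708-6857366, plus strand), which couples the T cell receptor to Rac, differed by about as much. WT libraries held 80.2, 94.4, 97.2 and 92.0 CPM at 1 h, 90.1, 91.4 and 88.1 CPM at 3 h and 130.4, 145 and 127 CPM at 6 h. CD47- libraries held 139.6, 136, 147 and 142 CPM at 1 h, 146, 128 and 134 CPM at 3 h and 171, 167 and 165 CPM at 6 h. WT levels at 6 h reached into the CD47- range of 1 and 3 h, but CD47- was higher in 10 of 10 matched pairs and the lines did not overlap within any time point. The difference was 1.43-fold (log2 0.51, SE 0.102, edgeR adjusted p = 0.000305), and within time points its log2 value was 0.63, 0.61 and 0.33 at 1, 3 and 6 h.

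DOCK11 (chrX:118495815-118686163, plus strand), a Cdc42 activator, was higher in CD47- at every time point although the comparison of all libraries did not call it. In WT it was at 119, 122, 115 and 128 CPM at 1 h, 64.3, 65.2 and 64.6 CPM at 3 h and 44.1, 47.2 and 48.0 CPM at 6 h. In CD47- it was at 145, 159.9, 139.7 and 154 CPM at 1 h, 89.0, 80.3 and 103 CPM at 3 h and 56.0, 55.2 and 59.4 CPM at 6 h. Each time point separated the lines, and 10 of 10 matched pairs were higher in CD47-. Over all libraries it was higher by a log2 value of 0.35 (SE 0.252, edgeR adjusted p = 0.285). With a replicate block for the 10 matched pairs it was 0.35 with an adjusted p of 2.99e-05 in edgeR, and at 1, 3 and 6 h alone it was 0.31, 0.49 and 0.30, each called (highest adjusted p = 0.0097, at 3 h). Without the shallow CD47- library the 3 h value was 0.57 (edgeR adjusted p = 0.000368).

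The comparison within time points was made because levels of most members moved between 1 and 6 h. Within a time point the libraries of different treatments served as replicates, and 8 of 9 members were called at 1 h (7 higher, 1 lower; 49.2% of all genes tested were called), 4 at 3 h (all higher; 30.3%) and 7 at 6 h (4 higher, 3 lower; 59.6%). PREX1, RAC2, VAV1 and DOCK11 were called higher at each of the 3 time points (for RAC2, log2 fold changes of 0.54, 0.86 and 0.37). Without the shallow CD47- library the 3 h values were 1.61 for PREX1, 0.82 for RAC2 and 0.65 for VAV1, each still called in edgeR. TIAM1, ARHGEF6 and RAC1 were called higher at 1 h and lower at 6 h, as the plot of line differences shows, and their differences over all libraries were close to 0.

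**Figure D2:**
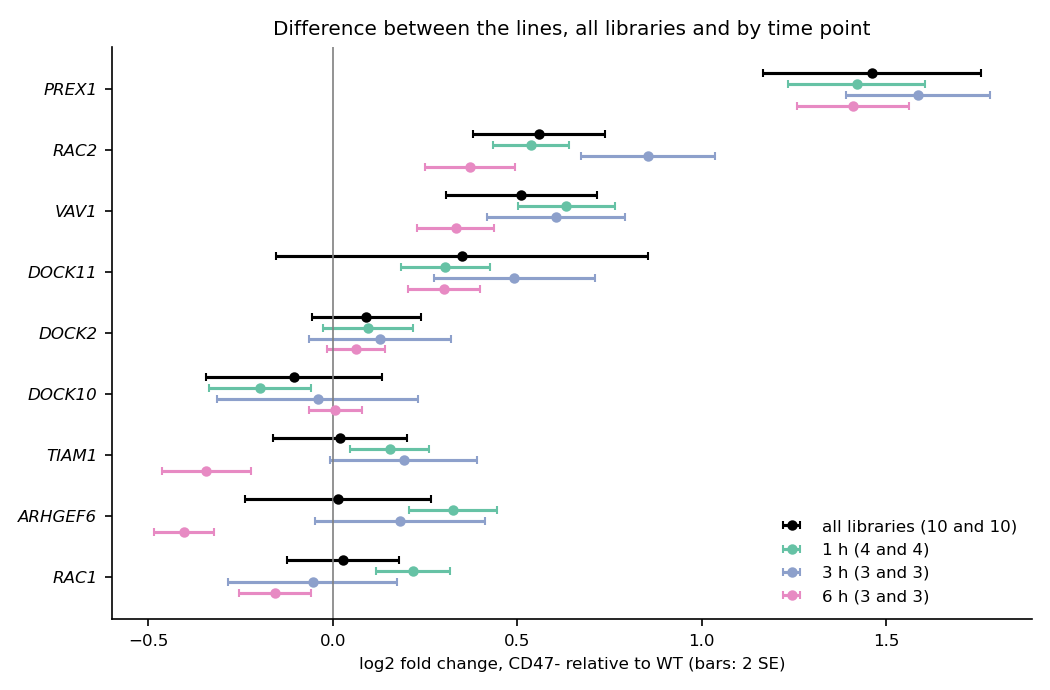
Log2 fold change of CD47- relative to WT for 9 genes (points) with 2 SE (bars), over all libraries (black) and in the libraries of 1, 3 and 6 h alone (colours; libraries per line in the legend). PREX1 stays between 1.41 and 1.59, while ARHGEF6 goes from 0.33 at 1 h to -0.40 at 6 h.

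ARHGEF6 (chrX:136665547-136780932, minus strand), which binds PAK kinases and GIT adapters, showed this most. WT cells had 199.6, 199, 174 and 193 CPM at 1 h, 176, 179 and 200.1 CPM at 3 h and 328, 316 and 328 CPM at 6 h. CD47- cells had 234, 247, 233 and 245 CPM at 1 h, 213, 185 and 230 CPM at 3 h and 242, 246 and 242 CPM at 6 h. The lines were apart at 1 h with CD47- higher, overlapped at 3 h, and were apart at 6 h with WT higher. The 3 h value was 0.18 (edgeR adjusted p = 0.267), and without the shallow CD47- library it was 0.26 and called (adjusted p = 0.0244). At 1 h ARHGEF6 differed by a log2 value of 0.33 (SE 0.0592, edgeR adjusted p = 0.00081) and at 6 h it was -0.40 (SE 0.0407, adjusted p = 3.63e-06).

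TIAM1 (chr21:31118416-31559977, minus strand), a DH-PH factor of cell polarity, was at 44.8, 46.6, 49.4 and 48.2 CPM in WT at 1 h, 37.2, 38.3 and 38.0 CPM at 3 h and 50.7, 49.7 and 43.6 CPM at 6 h. In CD47- it was at 52.0, 52.0, 55.0 and 51.6 CPM at 1 h, 41.0, 47.4 and 40.9 CPM at 3 h and 38.0, 38.5 and 36.3 CPM at 6 h. The lines did not overlap within any time point, with CD47- above WT at 1 and 3 h and below it at 6 h. The lines differed by a log2 value of 0.15 at 1 h (SE 0.0538, edgeR adjusted p = 0.0328), 0.19 at 3 h (adjusted p = 0.18; 0.12 and 0.202 without the shallow CD47- library) and -0.34 at 6 h (SE 0.0608, adjusted p = 4e-04).

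RAC1 (chr7:6374527-6403967, plus strand) was at 95.2, 98.3, 97.2 and 98.6 CPM in WT at 1 h, 109, 108 and 103 CPM at 3 h and 94.4, 101 and 88.8 CPM at 6 h. In CD47- it was at 108, 115, 111 and 118 CPM at 1 h, 106, 87.3 and 114 CPM at 3 h and 87.6, 82.2 and 83.4 CPM at 6 h. CD47- was above WT in every pair at 1 h and below it in every pair at 6 h. In log2 terms CD47- differed by 0.22 at 1 h (SE 0.0501, edgeR adjusted p = 0.00386) and -0.16 at 6 h (SE 0.0485, adjusted p = 0.0152). At 3 h the value was -0.0545 (edgeR adjusted p = 0.75), and 0.0479 without the shallow CD47- library (adjusted p = 0.598).

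DOCK2 (chr5:169637268-170083382, plus strand) was not called between the lines over all libraries. It ranged from 245 to 345 CPM in WT (median 272) and from 271 to 350.5 CPM in CD47- (median 284), and the lines overlapped. Within time points they overlapped at 1 h but not at 3 or 6 h, where CD47- was higher. DOCK2 was not called at 1, 3 or 6 h alone (lowest edgeR adjusted p = 0.181, at 6 h). The log2 fold change was 0.09, with 2 SE spanning -0.05 to 0.24 (edgeR adjusted p = 0.339), and 9 of 10 matched pairs were higher in CD47-. When libraries were scaled by their totals alone it was 0.21 (edgeR adjusted p = 0.018), with limma voom it was 0.19 (adjusted p = 0.00669), and with a time term it was 0.09 and also called (edgeR adjusted p = 0.0357). DOCK10 (chr2:224765090-225042468, minus strand) ranged from 68.3 to 147 CPM in WT (median 102) and from 78.5 to 123 CPM in CD47- (median 102). Its log2 fold change was -0.10 (2 SE from -0.34 to 0.13, edgeR adjusted p = 0.514), and it was called lower in CD47- at 1 h alone (-0.20, adjusted p = 0.0345).

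DOCK8 (chr9:214854-465259, plus strand), mutated in an inherited T cell immunodeficiency, was close to absent from both lines. It had 0 to 5 counts per WT library, 17 in all, and 1 to 6 counts per CD47- library, 31 in all. A count of 3 corresponds to between 0.0979 and 0.156 CPM in these libraries, and most libraries lay at or under it. It failed the low-count filter, so no fold is given.

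Levels of different genes were compared per transcript length, as TPM, in which counts are divided by length and scaled to a common total, within each library. DOCK2 had the highest median TPM in WT (47.3), followed by RAC1 (41.2), ARHGEF6 (40.0), VAV1 (34.0) and RAC2 (32.6), and the ranges of each neighbouring pair overlapped. DOCK10 (17.3), DOCK11 (11.4), TIAM1 (8.06) and PREX1 (2.85) followed. RAC2 was above DOCK10, and TIAM1 above PREX1, without overlap. In CD47- cells DOCK2 and VAV1 (both 59.9) led RAC2 (55.7), RAC1 (55.1) and ARHGEF6 (51.7), again with overlapping ranges, and PREX1 (10.0) and TIAM1 (9.88) were side by side. The ratio of RAC2 to RAC1, on the TPM scale, was 0.832 to 0.888 in WT and 0.966 to 1.17 in CD47- at 1 h, 0.562 to 0.6 and 0.909 to 1.25 at 3 h, and 0.958 to 0.995 and 1.31 to 1.4 at 6 h. The lines did not overlap in this ratio at any time point, and the CD47- value of 1.25 came from the shallow library.

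**Figure D3:**
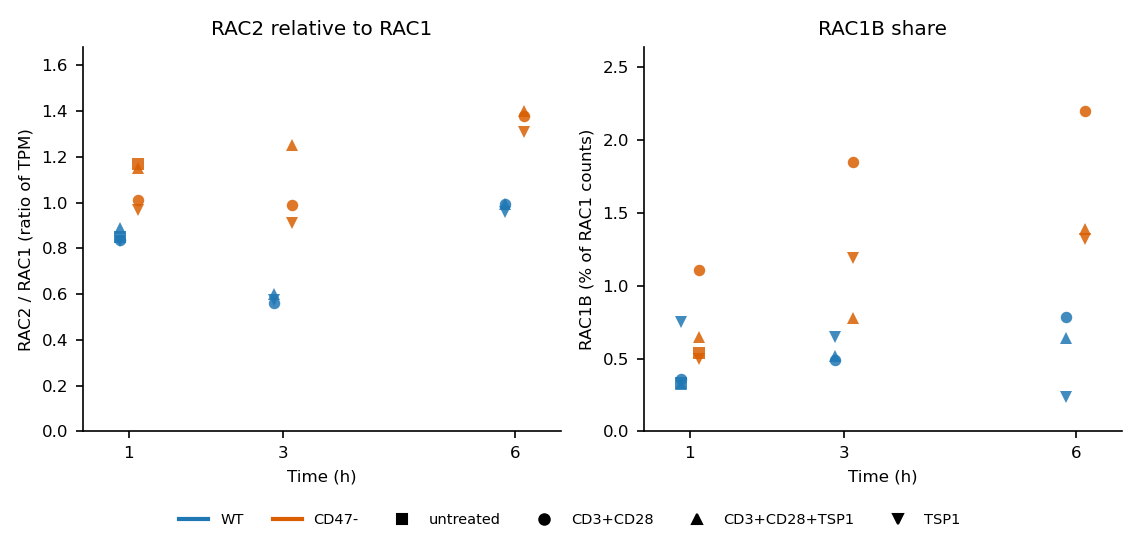
Left, ratio of RAC2 to RAC1 TPM against time (h); right, RAC1B as a percentage of RAC1 counts. Each point is a library, blue for WT and orange for CD47-, with symbols for treatment; the ratio is higher in CD47- at each time point, with 1.31 to 1.4 at 6 h against 0.958 to 0.995 in WT.

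The second question was how the members moved over 6 h, and whether they moved alike in the 2 lines. The comparisons of 3 h and of 6 h with 1 h share the 1 h libraries. At 3 h, 6 of 9 members were called in WT, all lower (PREX1, TIAM1, DOCK2, DOCK10, DOCK11 and RAC2; 34.3% of all genes were called), and 6 of 9 in CD47-, all lower (PREX1, TIAM1, DOCK2, DOCK10, DOCK11 and ARHGEF6; 38% of all genes). At 6 h, 6 of 9 were called in WT (ARHGEF6 and VAV1 higher, PREX1, DOCK2, DOCK10 and DOCK11 lower; 50.5%) and 7 of 9 in CD47- (VAV1 higher, PREX1, TIAM1, DOCK2, DOCK10, DOCK11 and RAC1 lower; 53%). All of these are edgeR calls over 16327 genes.

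DOCK11 fell most. Its log2 change from 1 to 6 h was -1.39 in WT (SE 0.0684, edgeR adjusted p = 4.34e-09) and -1.41 in CD47- (SE 0.0681, adjusted p = 3.92e-09), and the difference of -0.02 between these responses had 2 SE from -0.21 to 0.17 (adjusted p = 0.915). PREX1 changed by -0.81 on the log2 scale in WT (SE 0.0793, edgeR adjusted p = 1.7e-06) and -0.70 in CD47- (SE 0.0745, adjusted p = 3.07e-06), and these responses differed by 0.11 (adjusted p = 0.545). Its change at 3 h was -0.57 in WT and -0.28 in CD47- (edgeR adjusted p = 0.00861 in CD47-). These responses differed by 0.29, which was not called (edgeR adjusted p = 0.146). The CD47- call at 3 h was lost without the CD47- library given CD3+CD28+TSP1 for 1 h (-0.22, adjusted p = 0.06). DOCK10 was lowest at 3 h in both lines, with changes from 1 h of -0.64 in WT and -0.53 in CD47-, and DOCK2 fell by 0.31 and 0.30 at that time. In limma voom the DOCK2 change in CD47- was -0.14 and not called (adjusted p = 0.103). The smaller DOCK10 change at 6 h in CD47- (-0.25, edgeR adjusted p = 0.0216) was lost when any of 5 CD47- libraries was left out, namely CD3+CD28 or TSP1 at 1 h or any of the 3 libraries of 6 h (adjusted p up to 0.112). That of DOCK2 at 6 h in WT (-0.22, adjusted p = 0.0153) was lost without the CD3+CD28 library of 1 h (adjusted p = 0.105) or of 6 h (adjusted p = 0.0589).

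VAV1 rose from 1 to 6 h in WT (log2 0.50, SE 0.0622, edgeR adjusted p = 1.39e-05) and in CD47- (0.24, SE 0.0616, adjusted p = 0.00451; 0.18 and 0.0509 without the CD47- library given CD3+CD28 for 1 h). The difference of -0.26 between these responses missed the threshold (edgeR adjusted p = 0.0571). It was called, which made 4 members in place of 3, with treatments pooled to activated or not, without the CD47- library given CD3+CD28 for 1 h, and without the shallow CD47- library. In WT all VAV1 libraries of 6 h lay above those of 1 and 3 h, and the same held in CD47-.

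**Figure D4:**
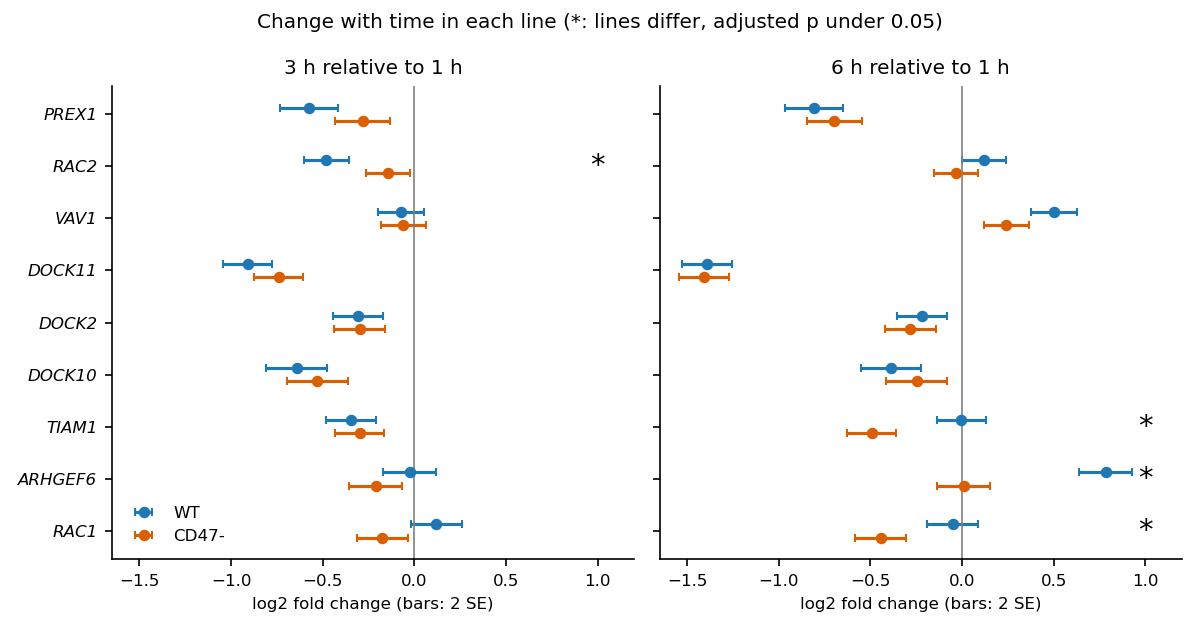
Log2 fold change of 3 h (left) and 6 h (right) relative to 1 h for 9 genes in WT (blue) and CD47- (orange); bars are 2 SE and asterisks mark genes whose responses differ between the lines. At 6 h the marks are on TIAM1, ARHGEF6 and RAC1, for which CD47- lies to the left of WT.

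Responses over 6 h differed between the lines for 3 of 9 members, ARHGEF6, TIAM1 and RAC1, all lower in CD47-, where 16.6% of all genes were called. ARHGEF6 rose in WT by a log2 value of 0.78 (SE 0.0729, edgeR adjusted p = 1.02e-06) and was at 0.01 in CD47- (SE 0.0725, adjusted p = 0.917), a difference in response of -0.77 (SE 0.103, adjusted p = 0.000246). TIAM1 was at 0.00 in WT (2 SE from -0.14 to 0.13) and fell by 0.49 in CD47- (SE 0.0671, edgeR adjusted p = 2.91e-05), a difference of -0.49 (SE 0.0946, adjusted p = 0.00344). RAC1 was at -0.05 in WT (SE 0.0692) and fell by 0.44 in CD47- (SE 0.0693, edgeR adjusted p = 9.83e-05), a difference of -0.39 (SE 0.0979, adjusted p = 0.0153). This last call was lost on leaving out any of 3 libraries, WT at 1 h with CD3+CD28+TSP1 (adjusted p = 0.0799), WT at 6 h with the same (0.0654) or CD47- at 6 h with TSP1 (0.0932). At 3 h the responses differed for 1 of 9 members, RAC2 (4.28% of all genes), which fell by 0.48 in WT and was at -0.14 in CD47- (difference 0.34, SE 0.0852, edgeR adjusted p = 0.0421). That call was lost in 15 of 20 fits that left out 1 library (adjusted p from 0.0319 to 0.128), although the difference stayed between 0.31 and 0.39. It was kept without the shallow CD47- library. The fall of ARHGEF6 at 3 h in CD47- (-0.21, edgeR adjusted p = 0.0345) was lost in 11 of 20 such fits, and without the shallow CD47- library it was -0.12 (adjusted p = 0.176).

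Transcripts of T cell activation moved over the same hours. Their summed level over 13 genes spanned 175 to 1790 CPM in WT and 275 to 504 CPM in CD47-, and at 6 h 10 of 12 tested genes were called lower than at 1 h in WT and 9 of 12 in CD47-, where 24.8% and 27% of all genes were. In both lines 2 of the 12, CD40LG and MYC, were called higher, where 25.7% (WT) and 26% (CD47-) of all genes were. Their part in the changes of the members was not tested.

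The third question was whether engagement of CD3 and CD28, or TSP1, changed the members. None of 9 was called in any of 8 comparisons, 4 in each line. These were CD3+CD28+TSP1 with TSP1 and with CD3+CD28 over 3 time points, and CD3+CD28 and TSP1 with untreated cells. The last 2 rest on 1 untreated library per line, at 1 h, which is assumed to vary like the other groups, and the libraries of 3 and 6 h enter them through an additive time term, so 0 calls there do not show that the members did not change. Of all genes, 0.0919% were called for CD3+CD28+TSP1 against TSP1 in WT (15 genes, all higher) and 0% in each of the other 7. Of 12 tested markers of T cell activation, 6 were called in that WT comparison and 0 in the same CD47- comparison. With so few genes called, 0 member calls in any of the 8 do not show that the members did not change. The additive time term is shared by all 8, so a change at 1 time point alone could be missed. DESeq2 and limma voom also called 0 members. At an unadjusted p under 0.05, edgeR gave 5 of 72 member tests, against 7.79% of the tests of all genes, and member changes lay between -0.22 and 0.32 on the log2 scale. In the 4 comparisons of treatment responses between the lines, 0 members were called by any of the 3 tools, 3 of 36 member tests had an unadjusted p under 0.05 (7.8% over all genes), and the share of all genes called was 0% in 3 and 0.00612% (1 gene) in TSP1 against untreated cells. The model leaves 8 residual degrees of freedom. The untreated library had the lowest PREX1 level of the 4 WT libraries at 1 h (18.8 CPM) and the highest of the 4 CD47- libraries (66.4 CPM). The change of PREX1 with CD3+CD28 differed between the lines by -0.55, with an edgeR adjusted p of 0.594 and 1 untreated library in each line.

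At the level of isoforms, 42 isoforms of the members were tested and 5 were called between the lines, all higher in CD47-, where 15.1% of 55450 isoforms were called (edgeR). They were the MANE Select isoforms of PREX1, RAC2 and VAV1, a VAV1 isoform with a downstream start, and a minor RAC1 isoform. Isoform counts are estimates that RSEM divides among overlapping transcripts, and so are less certain than gene counts. The MANE Select form of VAV1 starts at position 6772708 and took 28.6% ± 6.63 of VAV1 counts in WT and 35.96% ± 6.80 in CD47- (SD, n = 10 each; permutation p = 0.0265, adjusted p = 0.159 over 12 isoforms). The other VAV1 form starts 43728 bases downstream with a first exon of 36 bases and took 49.3% ± 4.95 and 47.1% ± 5.62 (permutation p = 0.357, adjusted p = 0.476). Both were higher in amount in CD47-, by log2 values of 0.88 (SE 0.143, edgeR adjusted p = 0.000142) and 0.47 (SE 0.123, adjusted p = 0.0112).

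RAC1 as a gene did not differ over all libraries, but its minor isoform RAC1B did, and it is singled out here after its values were seen. RAC1B is a fast-cycling Rac that carries an extra exon between exons 3 and 4 of the main form. The exon is printed because it sets RAC1B apart from the main form. It lies at chr7:6398662-6398718 on the plus strand of GRCh38, exon 4 of 7, and is 57 bases long, which keeps the reading frame; capitals mark it between 20 bases of each neighbouring exon.
RAC1B exon: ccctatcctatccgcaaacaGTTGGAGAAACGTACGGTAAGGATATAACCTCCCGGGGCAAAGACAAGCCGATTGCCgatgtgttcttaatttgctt
RAC1B had between 5.3 and 19.9 expected counts per WT library (median 12.4) and between 13.2 and 46.1 per CD47- library (median 26.6). It made up 0.508% ± 0.192 of RAC1 counts in WT and 1.15% ± 0.566 in CD47- (SD, n = 10 each), and its share was higher in CD47- in 9 of 10 matched pairs. The exception was TSP1 at 1 h (0.751% and 0.498%), and the highest shares were those of the CD47- libraries given CD3+CD28 for 6 h (2.2%) and 3 h (1.85%). RAC1B was higher by a log2 value of 1.178 (SE 0.306, edgeR adjusted p = 0.0103), and it stayed called when each library was left out in turn (adjusted p from 0.00698 to 0.0239). The main form fell from 98.2% ± 0.523 to 97.0% ± 0.985 of RAC1 counts (permutation p = 0.00219, adjusted p = 0.0263 over 12 isoforms), a call lost in 8 of 20 fits that left out 1 library and when counts were divided by transcript length.

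DOCK10 has 3 RefSeq promoters, and most of its counts were assigned to the most downstream. The isoform whose annotated start lies in the window chr2:224947000-224947299 (minus strand, GRCh38.p14), took 90.4% ± 2.21 of DOCK10 counts in WT and 88.7% ± 3.06 in CD47- (SD, n = 10 each; permutation p = 0.17, adjusted p = 0.409), or 70.2% and 67.9% when counts were divided by transcript length. Isoforms starting in the most upstream window, chr2:225042419-225042718, took 3.98% ± 1.10 and 5.43% ± 2.39, and those of the middle window 2.29% ± 1.24 and 2.54% ± 1.39. The most downstream and the most upstream windows are printed to show how unlike they are; capitals mark GC boxes (GGGCGG) and the ETS core (GGAAGT) on either strand.
DOCK10 downstream promoter: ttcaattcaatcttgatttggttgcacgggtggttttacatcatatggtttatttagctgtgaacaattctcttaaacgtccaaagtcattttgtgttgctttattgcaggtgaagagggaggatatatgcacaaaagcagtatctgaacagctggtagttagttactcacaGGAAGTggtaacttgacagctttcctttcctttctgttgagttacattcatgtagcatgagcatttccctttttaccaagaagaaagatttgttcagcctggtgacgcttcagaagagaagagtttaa
DOCK10 upstream promoter: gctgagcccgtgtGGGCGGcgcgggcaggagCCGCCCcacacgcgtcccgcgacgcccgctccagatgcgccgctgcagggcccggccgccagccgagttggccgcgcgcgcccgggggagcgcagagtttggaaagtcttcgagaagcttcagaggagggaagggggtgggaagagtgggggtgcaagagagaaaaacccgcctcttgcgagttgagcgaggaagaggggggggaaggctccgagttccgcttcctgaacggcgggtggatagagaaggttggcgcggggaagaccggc
The downstream window is 38.3% G and C with 3 CpG dinucleotides, 1 ETS core and no GC box, and the upstream window is 69.7% G and C with 33 CpG dinucleotides, 2 GC boxes and no ETS core. GC boxes occur in 45.0% and the ETS core in 22.8% of all RefSeq promoters of this length. Promoter windows were matched for 8 of the 10 genes, and those of RAC1 and RAC2 were not used here.

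Beyond the members, a list of 94 genes of the Rac pathway was examined, of which 87 were tested. Between the lines 44 were called, 35 higher and 9 lower in CD47- (50.6% of those tested, against 40.4% of all genes), with a median log2 fold change of 0.18 against -0.01 over all genes. Among the other exchange factors, 9 were higher and 3 lower of 22 tested, against 19.8% higher and 20.6% lower over all genes. PREX2, the closest relative of PREX1, moved opposite to it. It was at 29.2 ± 5.11 CPM in WT (21.8 to 35.3) and 0.642 ± 0.345 CPM in CD47- (0.285 to 1.45, 7 to 28 counts per library), with no overlap (log2 -5.53, SE 0.22, edgeR adjusted p = 4.84e-15). SWAP70, a PIP3-binding Rac activator, went from 2.43 ± 0.386 to 11.3 ± 1.17 CPM (log2 2.22, SE 0.102, edgeR adjusted p = 7.44e-14).

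Of the partners of DOCK and VAV proteins, 5 were higher and 1 lower of 14 tested, against 19.8% higher and 20.6% lower over all genes. ELMO1, the partner of DOCK2, rose from 41.6 ± 9.01 to 126 ± 21.7 CPM (log2 1.59, SE 0.129, edgeR adjusted p = 9.73e-10) while DOCK2 itself was at a log2 value of 0.09. PIK3CD, a kinase subunit that makes PIP3, rose from 19.8 ± 2.13 to 40.2 ± 4.71 CPM (log2 1.02, edgeR adjusted p = 6.19e-10). GRAP2, an adapter below the T cell receptor, rose from 33.2 ± 15.3 to 107 ± 22.6 CPM (log2 1.69, edgeR adjusted p = 1.13e-06).

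Of the proteins that turn Rac off or hold it in the cytosol, 8 were higher and 2 lower of 17 tested (19.8% and 20.6% over all genes). CHN1, a Rac GTPase-activating protein, fell from 16.4 ± 1.52 to 6.08 ± 1.03 CPM (log2 -1.44, edgeR adjusted p = 6.38e-11), while ARHGAP9 rose from 22.5 ± 4.29 to 43.1 ± 3.62 CPM (log2 0.94, adjusted p = 3.57e-08) and ARHGAP31 from 5.16 ± 1.66 to 22.1 ± 9.87 CPM (log2 2.10, adjusted p = 1.1e-07). Of the effectors, 9 were higher and 3 lower of 23 tested, beside the same shares, with IQGAP2, an actin-binding scaffold, at a log2 fold change of 0.99 (edgeR adjusted p = 9.14e-08), CYFIP1, a subunit of the WAVE complex that nucleates actin through Arp2/3, at 1.16 (2.75e-07), and WASF3 at 0.95 (1.79e-05) from a low level of 1.88 ± 0.49 CPM in WT. The plot of pathway genes shows these levels.

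**Figure D5:**
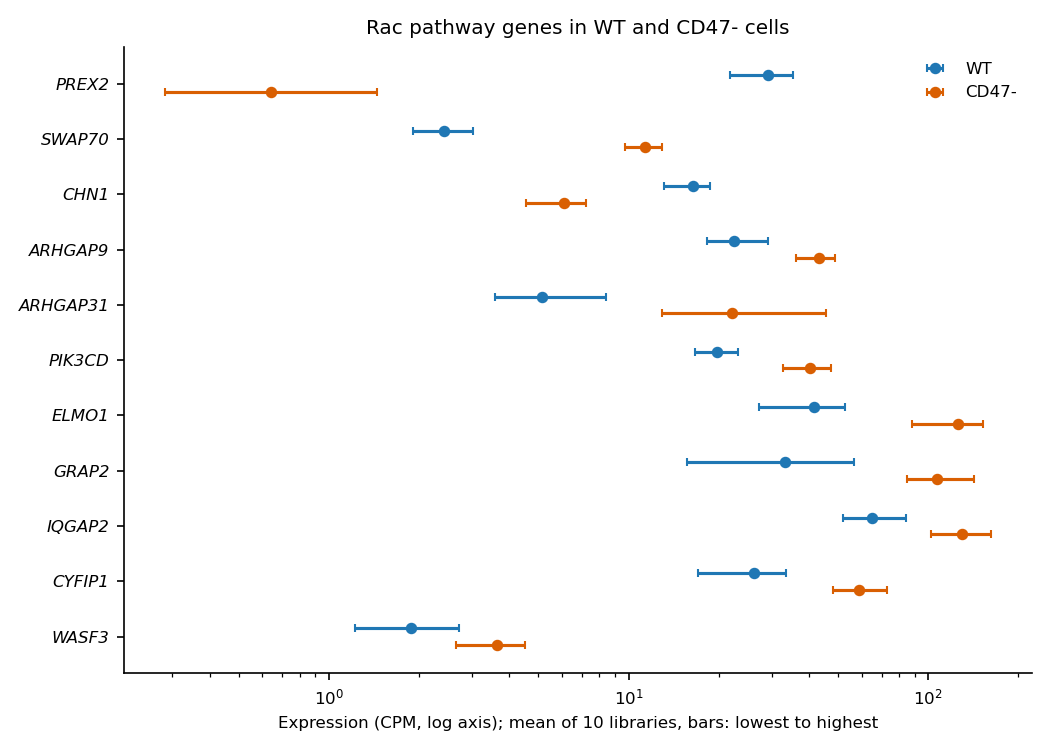
Expression (CPM, log axis) of the pathway genes named in the text, as the mean of 10 libraries in WT (blue) and CD47- (orange) with bars from the lowest to the highest library. PREX2 and CHN1 are lower in CD47- and the other genes shown are higher.

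At 6 h relative to 1 h, 47 of the 87 pathway genes were called in WT (21 higher, 26 lower; 54%, against 50.5% of all genes) and 56 in CD47- (20 higher, 36 lower; 64.4%, against 53%). The responses differed between the lines for 27 of them, 6 higher and 21 lower in CD47- (31%, against 16.6% of all genes). The genes whose log2 CPM followed that of PREX1 most closely over the 20 libraries, of 12519 compared, were STAT5B (Pearson r = 0.99), BTBD11 (0.99), ANO9 (0.98), RAB3D (0.98) and SEMA4C (0.98). All 5 were higher in CD47-, by log2 values between 1.29 and 3.01. This direction follows from choosing genes by correlation with PREX1 over both lines, and so is not a separate result. These correlations pool the 2 lines and all time points, and what they reflect was not tested.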

How the data were processed

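Per the labels and the paper's methods, mRNA libraries (TruSeq) were trimmed with Cutadapt 1.18, aligned with STAR 2.4.2a to GRCh38 (hg38) and counted with RSEM 1.3.3 on GENCODE 36. The deposited values are the authors' RSEM expected counts per gene and isoform, without normalization. The strand setting is not given in the sources used here, so reads of a member and of an overlapping antisense gene cannot be told apart; the largest such neighbour, at TIAM1, had at most 31 counts. Reads of RAC1 and its processed pseudogenes can be split (at most 16.2 counts in any pseudogene). The batch that the study removed with ComBat is not named, and that step was not repeated. Each table holds 2 columns that match no sample, and these were not used.

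Expected counts were rounded. The tools were edgeR 4.0.16, DESeq2 1.42.0 and limma 3.58.1 in R 4.3.3, and scipy 1.17.1 in Python 3.11.15. The filterByExpr filter, applied per line with a minimum count of 10 and a total of at least 15, left 16327 genes, which were scaled by TMM. P-values of the quasi-likelihood test were adjusted over all of them (Benjamini-Hochberg), and 0.05 was the threshold. The lines were compared over 10 libraries each. Treatments, times and their differences between lines came from 1 model, which held the treatments of each line and, within lines, terms for the later time points. SE is the log2 fold change divided by the square root of F, and intervals are 2 SE. Isoform shares of at least 10% of a gene were compared by a two-sided permutation test with 1e+05 resamples. TPM used transcript lengths of GENCODE 44. Counts cover counting error only; detection limits take 3 counts. Scripts were tested on simulated data.

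Libraries of the lines matched for treatment and time deviated from their line means together (r from 0.114 to 0.419 over 10 pairs), so the pairing was used as an alternative. The alternatives were other tools (DESeq2, and limma voom after quantile normalization), other scaling (library totals or upper quartiles), other low-count filters, a replicate block, a time term, subsets of libraries, pooled treatments, libraries of 1 line, length-scaled shares, and each library left out in turn. Alternative tests of RAC1B, and tests of 3 h without the shallow library, were added after the values were seen. The only alternatives run for RAC1B were DESeq2, no low-count filter, the replicate block, the time term and each library left out. Named genes are the 10 members, CD47, up to 3 genes of each pathway group with the smallest p, and the 5 genes most correlated with PREX1. Some genes that this rule selects are left out of the text and the plots. The members and lists were chosen with earlier results of these data known.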

Additional observations from a re-analysis of the deposited data

Results flagged for a closer look

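The responses of 1 member at 3 h (4.28% of all genes) and of 3 members at 6 h (16.6%) differed between the lines by a test of the difference itself, in edgeR with adjustment over all genes. The CD47- response minus the WT response was 0.34 for RAC2 at 3 h, and at 6 h it was -0.49 for TIAM1, -0.77 for ARHGEF6 and -0.39 for RAC1, all on the log2 scale. The call of RAC2 was lost in 15 and that of RAC1 in 3 of 20 fits that left out 1 library. At 6 h every CD47- library was below every WT library for TIAM1, ARHGEF6 and RAC1, and at 1 h every CD47- library was above. These genes were named from the same values, so this separation is a description only. Here and above, the share of all genes whose libraries do not overlap between the lines was not counted. Between the lines, 59.6% of all genes were called at 6 h alone and 49.2% at 1 h alone. No library stood apart from the others of its line for any of the 9 tested members, in 18 groups of 10 libraries, where chance alone would mark about 1 group in 20. Each group pools the time points, so a library that deviates only within its time point could be missed. Within 3 h, the shallow CD47- library was at 87.3 CPM for RAC1, against 106 and 114 CPM in the other CD47- libraries. For ARHGEF6 it was at 185 CPM, against 213 and 230 CPM.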

How the results depend on the processing

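PREX1, RAC2 and VAV1 kept their direction and their call between the lines under every alternative run and in all 20 fits that left out 1 library. The number of members called between the lines was 3, against 5 with a time term (adding DOCK2 and DOCK11; 58.8% of all genes), 8 at 1 h alone and 7 at 6 h alone; with the replicate block for the paired libraries it was 4, adding DOCK11 (54.9% of all genes), and the block changed no other call of a member. Only 1 of 10 WT libraries correlated best with its own pair. The number called for the difference in response at 6 h was 3, against 4 with treatments pooled (adding VAV1) and 2 to 4 with each library left out. At 3 h it was 1, against 0 with no low-count filter and 0 to 1 with each library left out; that of isoform shares was 1, against 0 with counts divided by transcript length and 0 to 1 with each library left out. Differences that were close to 0 over all libraries changed sign: ARHGEF6 was -0.40 at 6 h alone and -0.0233 to 0.0962 with each library left out; TIAM1 was -0.34 at 6 h alone and -0.0141 to 0.0635; RAC1 was -0.0254 in the activated pairs alone, -0.0545 at 3 h (0.0479 without the CD47- library given CD3+CD28+TSP1 for 3 h) and -0.16 at 6 h; DOCK10 was 0.0088 with library totals alone and 0.0074 at 6 h alone; the share of the main RAC2 isoform differed by 0.12 percentage points by length, and by -0.19 to 0.29 with each library left out. Calls of the 6 h changes of DOCK2 in WT (-0.11) and DOCK10 in CD47- (-0.16), and of the 3 h changes of DOCK2 (-0.14) and ARHGEF6 (-0.08) in CD47-, were lost with limma voom; that of ARHGEF6 was also lost with upper-quartile factors (-0.16), no low-count filter (-0.21) and the libraries of 1 line alone (-0.18); the cause was not tested. Depth limits DOCK8 and RAC1B, and 1 library per condition limits all treatment comparisons.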
